A study of Homo sapiens with 6 samples.

Results

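The genes described here make and break down cyclic AMP (cAMP) in EndoC-βH1 cells, an immortalized human β-cell line. They are 5 adenylyl cyclases (ADCY3, ADCY5, ADCY6, ADCY8 and ADCY9) and 5 phosphodiesterases (PDE3B, PDE4B, PDE4D, PDE8B and PDE10A), 10 of the 60671 gene identifiers counted, and they were chosen by name as cAMP synthesis and breakdown genes. Wild-type cells received 1 µM AZD7762, an inhibitor of the checkpoint kinases CHEK1 and CHEK2, or the vehicle DMSO, with 3 bulk RNA-seq libraries in each group. Both groups were starved for 1 h in 0.5 mM glucose and then stimulated for 1 h, with the compound or vehicle present at both steps. The stimulation used 0.5 mM or 20 mM glucose, and which of these applied to each library is not given in the sources used here. All libraries came from the same cell line. The study's general statement on its in vitro work calls replicates independent, the labels name no separate cultures, and the p-values below measure the spread between these libraries.

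cAMP is the messenger through which glucagon-like peptide 1 and other incretin hormones strengthen insulin release once glucose has raised calcium in the β-cell. Adenylyl cyclases make it from ATP under the control of stimulatory (Gs) and inhibitory (Gi) G proteins and, for some isoforms, of calcium and calmodulin. Phosphodiesterases hydrolyse it, and protein kinase A (PKA) and the EPAC exchange factors carry its signal on to the secretory granules. The comparison asks whether transcripts of these enzymes differed between treated and vehicle cells within the treatment window.

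None of the 8 genes with enough counts to be tested passed an adjusted p of 0.05 in edgeR's quasi-likelihood test. Of all 17649 genes tested, 0.708% did, and at that share 0 of 8 does not set these genes apart. The 5 abundant genes, ADCY3, ADCY6, ADCY9, PDE3B and PDE4D, had fitted folds between 0.977 and 1.06. ADCY5 had the largest difference among the 8, with a fold of 1.54, and was 1 of 8 with an unadjusted p under 0.05, against 9.68% of all genes tested. PDE10A, at 0, 0 and 1 counts with DMSO and 3, 5 and 9 counts with AZD7762, was too low for the test. DESeq2 and edgeR's likelihood ratio test also called 0 of the 8.

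The libraries held between 20486391 and 29402440 counts, and a count of 3, taken as the floor of detection, was worth 0.102 to 0.144 CPM, the unit of counts relative to the library total, here after TMM scaling. Floors and intervals on counts cover counting error only. All 10 β-cell markers lay above the floor in every library, with a summed level of 3127 to 3920 CPM with DMSO and 3628 to 3991 CPM with AZD7762, and INS alone had 1016 to 1663 CPM. Markers of other endocrine cells summed to 204 to 229 CPM with DMSO and 244 to 267 CPM with AZD7762, of which SST made up 202 to 227 and 242 to 265 CPM, while PPY was at 0 in 2 libraries. Mitochondrial genes took 1.57% to 2.13% of the counts with DMSO and 2.26% to 2.63% with AZD7762. In a bulk sample, fewer cells of a type and less RNA per cell cannot be told apart.

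The order of levels was read per length, as CPM divided by the kilobases of merged exons (RPKM), in the DMSO libraries. PDE3B, the cGMP-inhibited phosphodiesterase that insulin signalling activates, stood first at 10.8 ± 0.586 RPKM (SD, n = 3). ADCY3 followed at 5.39 ± 0.326, ADCY9 at 4.36 ± 0.0560, ADCY6 at 3.87 ± 0.336 and PDE4D at 2.70 ± 0.156 RPKM. These 5 genes make up an abundant tier. The next gene in the order, PDE8B at 0.427 ± 0.0887 RPKM, lay 6.33 times below PDE4D. Of the PDE8B exon length, 51.6% is shared with another gene model on the same strand. Its level here and its share of the family below could be understated if reads in those exons were not counted.

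ADCY8, which is stimulated by calcium and calmodulin, had 0.239 ± 0.0647 RPKM and ADCY5, which calcium inhibits, 0.117 ± 0.0124 RPKM. PDE4B had 0.0466 ± 0.00971 RPKM, and PDE10A was last, with 0.00126 RPKM in 1 DMSO library and 0 counts in the other 2. No ranges of neighbouring genes overlapped between the 3 DMSO libraries, and the order of the AZD7762 means was the same. The order in the middle rests on the length used. With the length of the canonical transcript, ADCY9, PDE4D and ADCY6 had 5.80, 5.40 and 5.38 RPKM with DMSO and overlapped. On that length, the mean of ADCY5 ranked above that of ADCY8 with AZD7762, at 0.251 ± 0.0562 against 0.199 ± 0.0177 RPKM (SD, n = 3). The AZD7762 libraries of these genes overlapped on either length, so their order with AZD7762 is not settled.

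**Figure D1:**
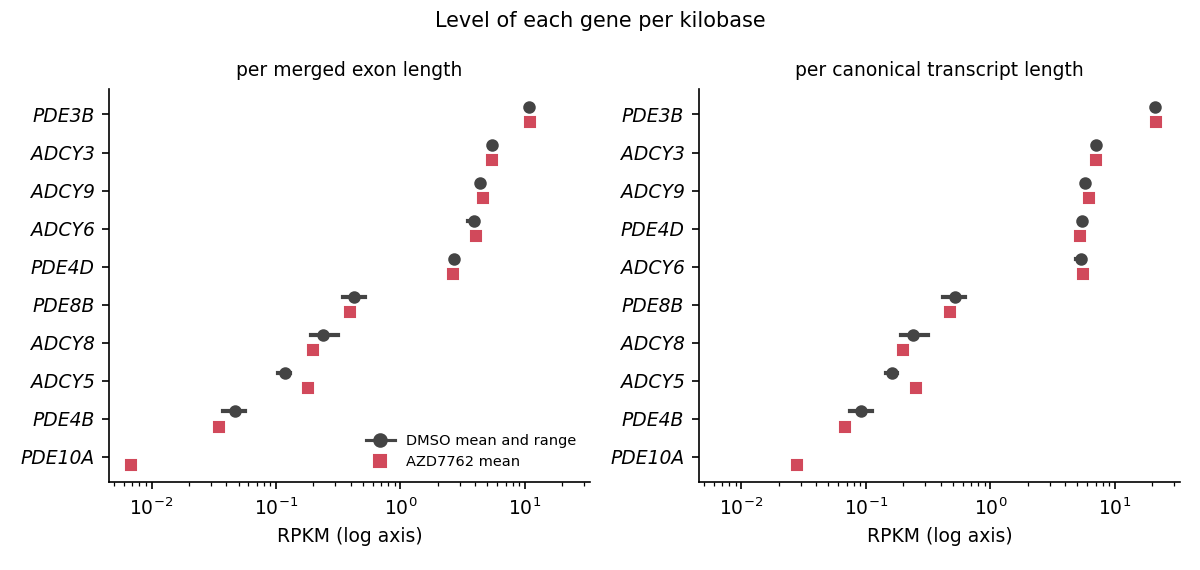
Level of the 10 genes in RPKM on a log axis, per merged exon length (left) and per canonical transcript length (right), with the DMSO mean as a point, the range of the 3 DMSO libraries as a line and the AZD7762 mean as a square. PDE10A has no DMSO point because 2 of its DMSO libraries held 0 counts. PDE3B leads on both lengths, at 10.8 and 21.0 RPKM, and a gap below PDE4D or ADCY6 separates 5 abundant from 5 scarce genes.

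The make-up of each family is given as shares of its summed level, as a description. Among the 10 adenylyl cyclase genes, summed per merged exon length, ADCY3 made up 30.3% ± 0.404 with DMSO and 29.6% ± 0.411 with AZD7762, ADCY9 24.5% and 25.3%, and ADCY6 21.7% and 22.0%. The rest of the family was mostly ADCY1, another calcium-stimulated cyclase, at 18.6% and 18.1%. These 4 genes led in both groups. ADCY8 held 1.34% and 1.08%, and ADCY5 held 0.663% (0.556 to 0.757) and 0.986% (0.824 to 1.23), where the ranges of the groups did not overlap. The summed level of the family was 17.8 ± 0.864 RPKM with DMSO and 18.3 ± 0.841 RPKM with AZD7762.

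Among the 16 phosphodiesterase genes that hydrolyse cAMP, PDE3B made up 38.8% ± 0.963 with DMSO and 39.4% ± 0.763 with AZD7762. PDE4D held 9.69% and 9.42%, and PDE8B 1.53% and 1.40%. The 5 genes described here together made up 50.2% and 50.4% of that family. About the same part of the family was thus covered in both groups. The other large shares belonged to PDE1A, which calcium and calmodulin activate, at 20.3% and 20.8%, and to PDE8A, a cAMP-specific enzyme, at 16.4% and 15.9%. With the canonical transcript length these were turned, with PDE8A at 18.3% and 17.7% and PDE1A at 15.0% and 15.4%. The summed level was 27.9 ± 0.914 and 28.0 ± 1.02 RPKM.

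**Figure D2:**
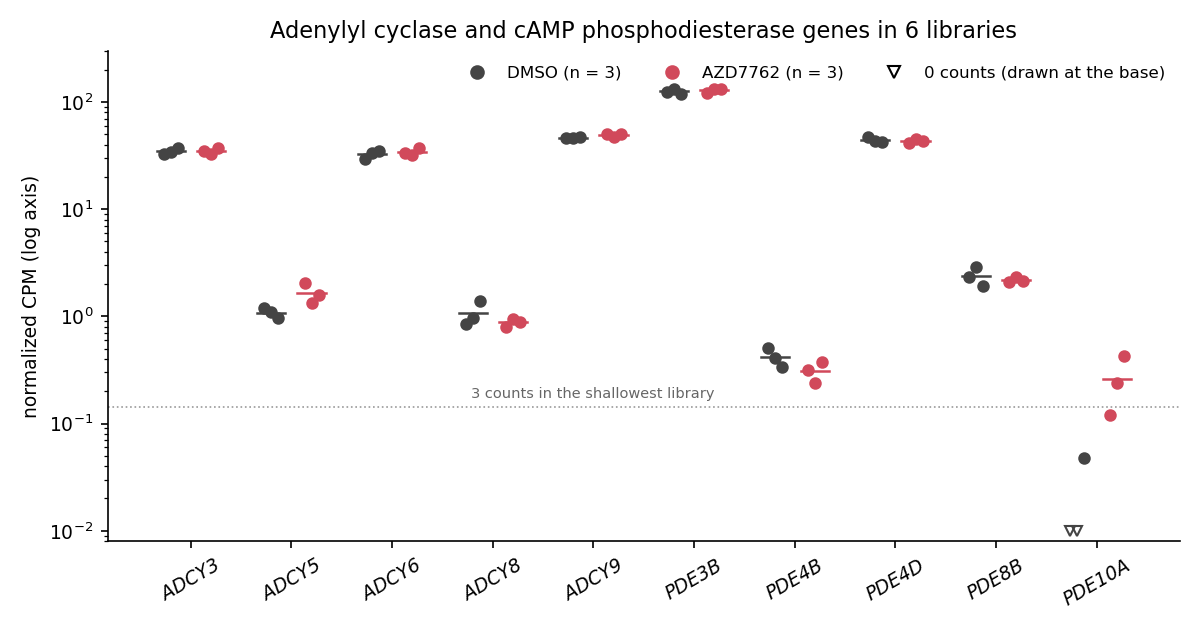
Normalized CPM of each gene in each library on a log axis, DMSO in grey and AZD7762 in red (n = 3 each), with a bar at the mean and open triangles for libraries with 0 counts. The dotted line is the level of 3 counts in the shallowest library, 0.144 CPM. In ADCY5 and PDE10A every AZD7762 library lies above every DMSO library, and in the other 8 genes the groups overlap. Groups did not overlap in 15.0% of all genes tested, a share that does not cover PDE10A, which was not tested.

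ADCY3 (ENSG00000138031, GRCh37 chromosome 2, 25042038 to 25143106, minus strand), a widely expressed cyclase, had 33.0, 34.3 and 37.1 CPM in DMSO replicates 1, 2 and 3 and 35.1, 33.0 and 36.8 CPM in AZD7762 replicates 1, 2 and 3. The values of both groups spanned the same range. The log2 fold change, here and below AZD7762 over DMSO, was 0.01 (standard error 0.073, 95% interval -0.15 to 0.17), with an adjusted p of 0.980 in edgeR's test. Of its exon length, 23% lies opposite exons of CENPO, a centromere gene at 974 to 1450 counts, and reads of the pair could be told apart only if strand was used in the counting, which the sources used here do not state. CENPO itself had a log2 fold change of 0.16 (adjusted p = 0.505 in edgeR's test).

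ADCY6 (ENSG00000174233, chromosome 12, 49159977 to 49182872, minus strand), a cyclase inhibited by calcium, had 29.6, 33.4 and 35.2 CPM with DMSO against 33.3, 31.9 and 37.0 CPM with AZD7762. The groups overlapped, and the lowest value was that of DMSO replicate 1. AZD7762 over DMSO gave 0.06 on the log2 scale (standard error 0.084, interval -0.12 to 0.24, adjusted p = 0.874 in edgeR's test).

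ADCY9 (ENSG00000162104, chromosome 16, 4003388 to 4166443, minus strand), the membrane cyclase that responds least to forskolin, had 45.8, 46.1 and 46.9 CPM with DMSO against 50.7, 46.8 and 49.9 CPM with AZD7762. The lowest AZD7762 value lay just under the highest DMSO value. Its log2 fold change of 0.09 (standard error 0.062, interval -0.05 to 0.22) did not pass edgeR's test (adjusted p = 0.699).

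ADCY8 (ENSG00000155897, chromosome 8, 131792547 to 132053155, minus strand) was counted 25, 26 and 29 times with DMSO and 20, 20 and 19 times with AZD7762, or 0.846, 0.956 and 1.39 CPM against 0.795, 0.950 and 0.891 CPM. DMSO replicate 3 stood highest, and the other 5 libraries lay together. The log2 fold change was -0.25 with a standard error of 0.26, and the interval ran from -0.81 to 0.32 (adjusted p = 0.812 in edgeR's test). At this depth a fall to 0.569 of the DMSO level and a rise to 1.25 times it both lay inside the interval. Leaving out 1 library moved the log2 fold change to between -0.40, without DMSO replicate 1, and -0.04, without DMSO replicate 3.

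ADCY5 (ENSG00000173175, chromosome 3, 123001143 to 123167937, minus strand), which lies at a locus known from genetic studies of type 2 diabetes and fasting glucose, was counted 35, 30 and 20 times with DMSO and 52, 28 and 34 times with AZD7762. Scaled to the libraries these were 1.18, 1.10 and 0.959 CPM with DMSO and 2.07, 1.33 and 1.59 CPM with AZD7762. Every AZD7762 library lay above every DMSO library, with means of 1.66 ± 0.373 and 1.08 ± 0.115 CPM (SD, n = 3). Groups that did not overlap were found for 1 of the 8 genes here and for 15.0% of all genes tested.

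The log2 fold change of ADCY5 was 0.62 (standard error 0.22, interval 0.13 to 1.11), a fold of 1.54 with an interval from 1.10 to 2.15. The unadjusted p was 0.0168 in edgeR's test and the adjusted p 0.379, so the difference did not pass the threshold. AZD7762 replicate 1 was the highest library, and without it the log2 fold change was 0.41 (unadjusted p = 0.112 in edgeR's test). The direction was the same in 15 of 15 alternative analyses, with adjusted p-values between 0.175 and 0.920.

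Other measures of the libraries also split between the groups. The summed markers of other endocrine cells (2 of 4 above the floor in every library) and of exocrine or duct cells (1 of 4, CPA1, with PRSS1 and CELA3A at 0) did not overlap between the groups, the latter at 21.5 to 22.7 CPM with DMSO and 24.9 to 27.6 CPM with AZD7762. Markers of mesenchymal, endothelial or immune cells (2 of 5 above the floor in every library) overlapped, at 11.1 to 17.0 and 12.0 to 14.8 CPM. The mitochondrial share also did not overlap, at 1.57% to 2.13% with DMSO and 2.26% to 2.63% with AZD7762. The part of these measures in the ADCY5 values was not tested.

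Across the 6 libraries, the genes whose log2(CPM + 0.5) was most like that of ADCY5 were ALKBH5, an RNA demethylase, with a Pearson r of 0.994, ABHD14B, a hydrolase, with 0.993, and the pseudogene UBE2D3P2 with 0.992. These are descriptions over 6 libraries that share the same treatment split. A total of 195 of 17648 genes had an r above 0.9.

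PDE3B (ENSG00000152270, chromosome 11, 14665350 to 14893590, plus strand) had 125, 133 and 119 CPM with DMSO against 122, 131 and 132 CPM with AZD7762. The groups overlapped throughout. Its log2 fold change of 0.03 (standard error 0.063, interval -0.11 to 0.17, adjusted p = 0.915 in edgeR's test) places a change in the leading phosphodiesterase transcript between 0.929 and 1.12 times the DMSO level.

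PDE4D (ENSG00000113448, chromosome 5, 58264865 to 59817947, minus strand) encodes a cAMP-specific enzyme of the rolipram-sensitive family and has 27 annotated transcripts, which gene counts do not separate. It had 46.9, 43.4 and 41.9 CPM with DMSO against 41.2, 44.7 and 43.4 CPM with AZD7762. Both the highest and the second lowest value were DMSO libraries. A log2 fold change of -0.03 was fitted (standard error 0.068, interval -0.18 to 0.11, adjusted p = 0.915 in edgeR's test).

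PDE8B (ENSG00000113231, chromosome 5, 76506274 to 76724081, plus strand), a high-affinity cAMP-specific enzyme that the common inhibitor IBMX does not block, was counted 40 to 79 times per library. Its levels were 2.34, 2.91 and 1.92 CPM with DMSO and 2.11, 2.33 and 2.16 CPM with AZD7762. The 3 AZD7762 libraries lay inside the DMSO range. Its fitted log2 fold change was -0.13 (standard error 0.18, interval -0.53 to 0.26, adjusted p = 0.864 in edgeR's test). Of its exon length, 51.6% is shared on the same strand with the gene model ENSG00000284762, which held 0 counts in every library, and how reads in shared exons were assigned is not given in the sources used here.

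PDE4B (ENSG00000184588, chromosome 1, 66258197 to 66840262, plus strand), the relative of PDE4D best known from immune and brain cells, was counted 15, 11 and 7 times with DMSO and 8, 5 and 8 times with AZD7762. These are 0.508, 0.405 and 0.335 CPM against 0.318, 0.238 and 0.375 CPM, and the groups overlapped. Over the summed counts of 33 and 21, the ratio of AZD7762 to DMSO was 0.731, with a 95% counting interval from 0.402 to 1.30. It did not pass the filter on low counts and was not tested.

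PDE10A (ENSG00000112541, chromosome 6, 165740776 to 166401605, minus strand), a phosphodiesterase for cAMP and cGMP known for its high level in the striatum, was likewise not tested. Its 1 count with DMSO fell in replicate 3 (0.0479 CPM), and the 3, 5 and 9 counts with AZD7762 were 0.119, 0.238 and 0.422 CPM. All AZD7762 libraries were above all DMSO libraries, and AZD7762 replicate 1 sat at the floor of 3 counts. The ratio of the summed counts, 17 to 1, was 19.5 with a 95% counting interval from 3.06 to 816, which does not hold the spread between libraries.

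When no filter on low counts was applied, PDE10A was called in edgeR's quasi-likelihood test, with an adjusted p of 0.0300, as 1 of 330 genes (0.950% of 34742). Of these 330, only 7 were genes that the filter had removed, PDE10A among them. The fitted log2 fold change of PDE10A without a filter, 3.83 (standard error 1.04), depends on the prior count added to a group at almost 0 and is no bound. The call was kept without DMSO replicate 3 or without AZD7762 replicate 1, with adjusted p-values of 0.0121 and 0.0241 in edgeR's test. It was also kept with edgeR's likelihood ratio test (adjusted p = 0.0137). It was lost when the replicate number was added as a term (adjusted p = 0.0743 in edgeR's quasi-likelihood test) and without any other library. Of these libraries, AZD7762 replicate 3 mattered most, with an adjusted p of 0.338 in edgeR's quasi-likelihood test. These refits of PDE10A were added after its values were seen. DESeq2 gave PDE10A an unadjusted p of 0.00575 and no adjusted p. The transcript LINC00602, opposite 1.49% of its exon length, was counted 1, 1 and 0 times with DMSO and 6, 1 and 2 times with AZD7762.

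**Figure D3:**
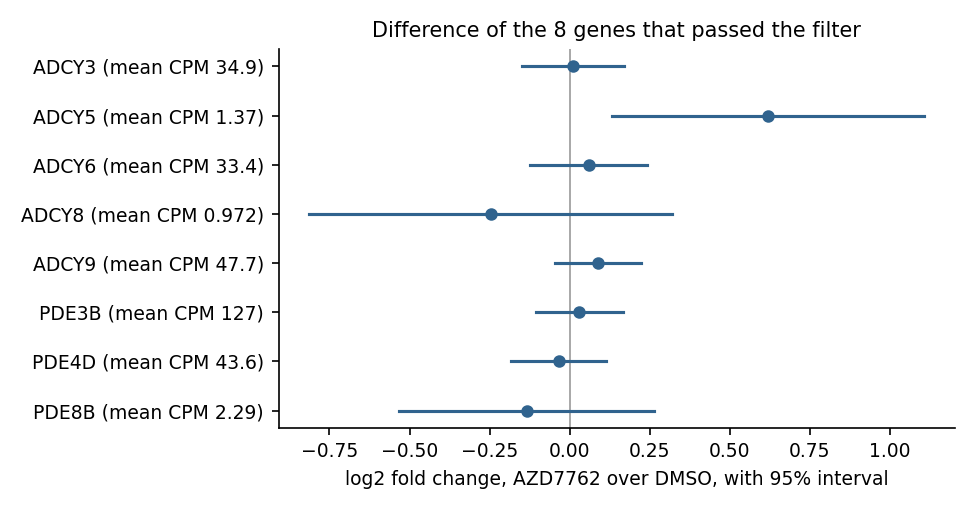
Log2 fold change of AZD7762 over DMSO for the 8 genes that passed the filter, as points with 95% intervals from edgeR's quasi-likelihood fit, and the mean CPM of each gene beside its name. The interval of ADCY5, 0.13 to 1.11, lies above 0, and the other 7 hold 0.

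The intervals followed the level of the gene. Standard errors were 0.062 to 0.084 on the log2 scale in the 5 abundant genes and 0.18 to 0.26 in PDE8B, ADCY5 and ADCY8. For the abundant genes the highest upper bound was a fold of 1.18, for ADCY6, and the lowest lower bound a fold of 0.882, for PDE4D. Over the 8 tested genes the median log2 fold change was 0.02, and 5 of 8 were positive. Over all genes tested the median was 0.0076, with a median size of 0.09 against 0.07 for these 8.

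**Figure D4:**
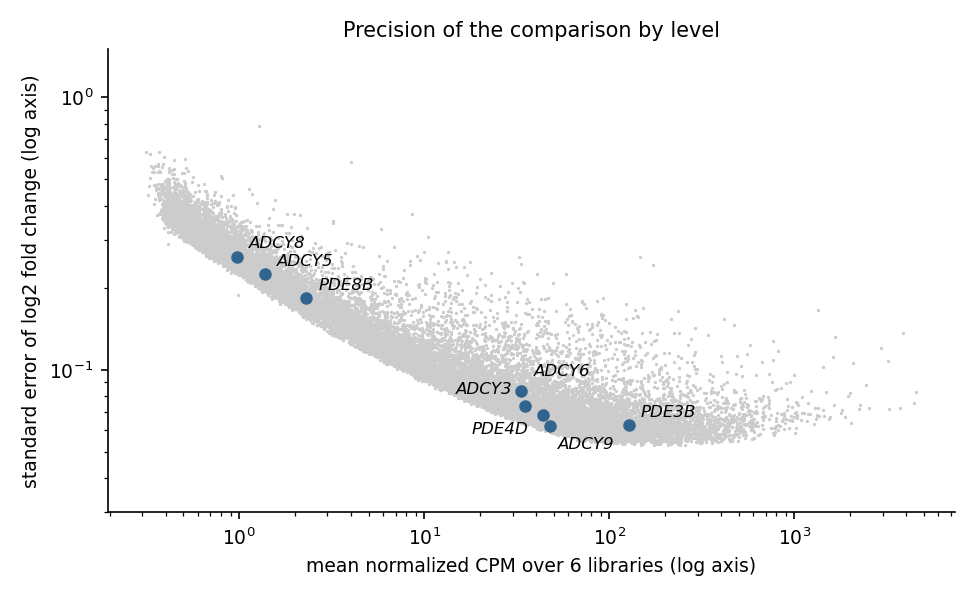
Standard error of the log2 fold change against mean normalized CPM over the 6 libraries, both on log axes, with each tested gene as a grey dot and the 8 described genes in blue. The standard error is 0.26 in ADCY8, at a mean of 1.06 CPM with DMSO, and 0.062 in ADCY9, at 46.3 CPM.

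The promoters of ADCY5 and PDE10A, the genes whose groups did not overlap, were read for elements through which promoters answer to cAMP or are generally driven. The sequences are RefSeq's, build GRCh38.p14, from 250 bases before to 50 after each annotated start, 5′ to 3′ on the gene's own minus strand. Capitals mark the GC box GGGCGG and the CCAAT box on either strand, and would mark the cAMP response element TGACGTCA and its half-site TGACG, which is part of the full element.
ADCY5, chr3:123449041-123449340: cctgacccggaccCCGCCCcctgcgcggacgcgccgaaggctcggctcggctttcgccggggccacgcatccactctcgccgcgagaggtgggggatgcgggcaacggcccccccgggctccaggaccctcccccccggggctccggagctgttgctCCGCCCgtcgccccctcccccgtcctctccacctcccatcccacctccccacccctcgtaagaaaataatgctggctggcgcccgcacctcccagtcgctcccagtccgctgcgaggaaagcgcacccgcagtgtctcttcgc
ADCY5, chr3:123416293-123416592: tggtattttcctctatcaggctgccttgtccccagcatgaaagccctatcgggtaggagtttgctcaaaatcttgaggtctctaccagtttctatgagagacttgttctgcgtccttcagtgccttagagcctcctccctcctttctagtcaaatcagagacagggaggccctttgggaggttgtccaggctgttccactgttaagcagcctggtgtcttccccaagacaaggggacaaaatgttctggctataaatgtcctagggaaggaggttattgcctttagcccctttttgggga
PDE10A, chr6:165663192-165663491: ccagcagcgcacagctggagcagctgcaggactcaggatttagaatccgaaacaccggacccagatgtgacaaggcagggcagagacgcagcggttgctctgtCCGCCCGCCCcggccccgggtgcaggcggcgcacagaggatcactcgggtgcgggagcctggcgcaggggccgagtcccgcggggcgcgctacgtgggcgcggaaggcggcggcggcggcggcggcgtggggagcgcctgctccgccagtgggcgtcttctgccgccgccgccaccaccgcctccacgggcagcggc
PDE10A, chr6:165662231-165662530: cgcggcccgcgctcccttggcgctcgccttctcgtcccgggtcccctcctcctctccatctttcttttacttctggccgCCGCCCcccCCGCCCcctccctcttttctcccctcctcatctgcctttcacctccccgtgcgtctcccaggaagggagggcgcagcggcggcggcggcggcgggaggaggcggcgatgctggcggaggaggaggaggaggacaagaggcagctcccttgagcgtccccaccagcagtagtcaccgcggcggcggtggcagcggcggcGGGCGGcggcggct
The full element was found in 0 of the 24 promoters listed for 6 of the 10 genes (ADCY3, ADCY5, PDE4B, PDE4D, PDE8B and PDE10A) and in 1.85% of all 35116 promoters in the table. The half-site was in 2 of the 24 and in 24.6% of all, the GC box in 9 of the 24 and in 45% of all, and the CCAAT box in 4 of the 24 and in 34.6% of all. The 24 windows include alternative starts of the same genes and are not independent. A match is a description of the letters, and the lack of one says only that these letters are not in this window.

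The rest of the cAMP pathway was read from lists of 66 genes, of which 56 passed the filter. In edgeR's test 1 of 56 was called, against 0.708% of all genes tested. It was the α2A adrenergic receptor ADRA2A, which was higher with AZD7762, and 0.357% of all genes tested were called and higher. Groups did not overlap in 9 of 56 (16.1%), close to the 15.0% of all genes. An unadjusted p under 0.05 was found for 4 of 56, against 9.68% of all genes tested. The median log2 fold change over the 56 was -0.02, and 25 were positive.

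ADRA2A (ENSG00000150594, chromosome 10, 112836787 to 112840665, plus strand) couples to Gi, lowers cAMP through adenylyl cyclase and restrains insulin release in β-cells. It had 38.0, 36.1 and 37.0 CPM with DMSO against 46.0, 52.2 and 49.0 CPM with AZD7762, and the groups did not overlap. The log2 fold change was 0.40 (standard error 0.068), a fold of 1.32, with an adjusted p of 0.0127 in edgeR's test. The call held in 12 of 15 alternatives, with log2 fold changes between 0.35 and 0.44 in all 15. It was lost without DMSO replicate 1, DMSO replicate 2 or AZD7762 replicate 2, with adjusted p-values of 0.0561, 0.0818 and 0.0803 in edgeR's test.

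The other 11 tested receptors that couple to Gs or Gi were not called, and the median of the 12 was -0.16, with 2 positive. SSTR2, a Gi-coupled somatostatin receptor, went from 190.2, 181.9 and 182.4 CPM to 163.4, 173.1 and 161.4 CPM. Its log2 fold change was -0.16 (unadjusted p = 0.0180, adjusted p = 0.390 in edgeR's test), and its groups did not overlap. The receptor with the highest CPM, SSTR3, had 223.9 ± 3.95 CPM with DMSO against 207.8 ± 6.37 CPM with AZD7762 (log2 fold change -0.11, adjusted p = 0.573 in edgeR's test). GLP1R, the receptor of glucagon-like peptide 1, had 0.827 ± 0.0481 and 0.941 ± 0.334 CPM.

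Among the enzymes outside the 10 genes, 3 of 5 other cyclases and 8 of 11 other cAMP phosphodiesterases were tested and 0 were called. ADCY1 had 46.3 CPM in both groups (log2 fold change 0.0004), and PDE1A had 37.5 ± 2.37 and 38.6 ± 1.58 CPM (log2 fold change 0.04, adjusted p = 0.907 in edgeR's test). ADCY10, the soluble cyclase, had 2 counts over the DMSO libraries and 8 over the AZD7762 libraries and was not tested. Of the 5 tested genes listed with the cGMP-specific enzymes, PDE6D had an unadjusted p of 0.0139 and an adjusted p of 0.354 in edgeR's test, with 63.3, 67.9 and 57.8 CPM against 71.9, 74.5 and 70.3 CPM. Its product is a carrier of prenylated proteins and not a hydrolase of its own.

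Of 9 PKA subunit and inhibitor genes, 0 were called, 7 were positive and the median log2 fold change was 0.06. PRKAR1A, with the highest CPM of these, had 489 ± 32.4 and 518 ± 31.1 CPM. PRKAR1B, another regulatory subunit, had 16.9, 15.8 and 17.8 CPM with DMSO against 20.9, 17.6 and 19.4 CPM with AZD7762, values that overlapped (log2 fold change 0.20, unadjusted p = 0.0439, adjusted p = 0.497 in edgeR's test). The EPAC gene RAPGEF4 had 63.1 ± 2.92 and 58.1 ± 0.863 CPM (log2 fold change -0.12, adjusted p = 0.568 in edgeR's test).

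GNAS, the Gs α subunit gene, had the highest CPM of the pathway lists, at 4298 ± 301 and 4584 ± 155 CPM, and 0 of the 7 G protein α subunit genes were called. Of the 10 A-kinase anchoring proteins, which tether PKA near its substrates, 0 were called and 2 were positive, with a median log2 fold change of -0.09. AKAP9, which had the highest mean CPM of them over the 6 libraries and is a long gene, stood at 162 ± 30.1 and 141 ± 40.4 CPM (log2 fold change -0.20, adjusted p = 0.763 in edgeR's test).

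**Figure D5:**
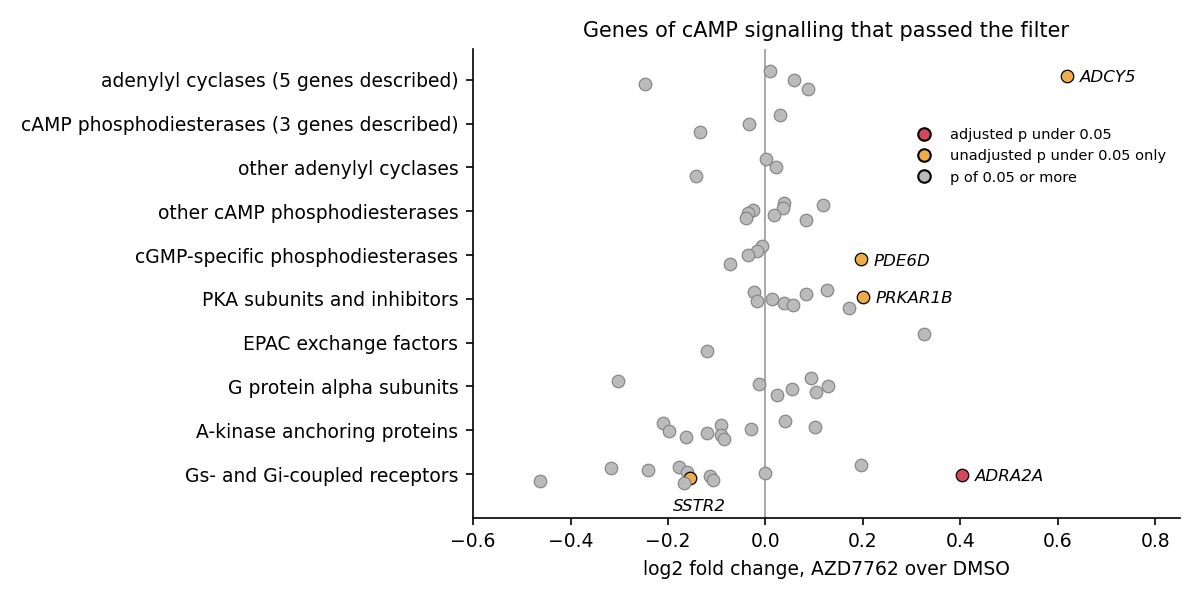
Log2 fold change of AZD7762 over DMSO for the 8 described genes and the 56 tested genes of the pathway lists, 1 row per list and 1 point per gene. ADRA2A, at 0.40, is the point in red with an adjusted p under 0.05, and ADCY5, PDE6D, PRKAR1B and SSTR2, in orange, passed only an unadjusted 0.05.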

How the data were processed

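Gene expression was measured by RNA-seq of polyadenylated RNA in 3 DMSO and 3 AZD7762 libraries, grouped by the treatment in their labels. The authors checked the reads with FastQC 0.10.1, trimmed them with cutadapt 1.18, mapped them to the GRCh37 genome and ran HTSeq-count for gene totals. The aligner and the annotation release are not given in the sources used here. The deposited values are these raw counts, with no scaling or filter, and the deposited files gave 60671 identifiers per library. Libraries were prepared with a stranded or an unstranded kit, and which library had which is not given in the sources used here.

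From these counts, 34742 identifiers had a count in at least 1 library, and 58646 were matched by identifier to a GRCh37 annotation for symbols, positions and exon lengths. In R 4.3.3, edgeR 4.0.16 was run with filterByExpr (17649 genes kept), TMM factors and its quasi-likelihood test on a model with treatment alone, adjusted by Benjamini-Hochberg over all genes tested at a threshold of 0.05. The standard error is taken as the absolute log2 fold change over the root of the F statistic. Replicates of a group differed by more than sampling noise (chi-square of 4.51 to 8.62 per gene), and the biological coefficient of variation was 7.15%. Intervals on summed counts are exact binomial (Clopper-Pearson). All tests were two-sided. The scripts were tested on simulated counts. Alternatives were other scaling factors, other filters, DESeq2 1.42.0, edgeR's likelihood ratio test, the replicate number as a term, a correction for GC content and length, and each library left out in turn.

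The 10 genes and the pathway lists were chosen with earlier results of these data known. The pathway genes named are those with an unadjusted p under 0.05 and the tested gene with the highest mean CPM in each list. GLP1R, ADCY10 and PDE8A were named outside that rule, after their values were seen.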

Additional observations from a re-analysis of the deposited data

How the results depend on the processing

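The number of genes called, 125, became 330 with no filter on low counts, 267 with the likelihood ratio test, 378 with the replicate block and 238 after correction for GC content and length, and ranged from 77 (without AZD7762 replicate 1) to 168 (without DMSO replicate 3) when 1 library was left out. The number of the 10 genes called was 0 in 14 of 15 alternatives and 1, PDE10A, with no filter. The labels do not say whether the replicate numbers pair the libraries, and the values below do not settle it. The deviations of same-numbered libraries correlated at 0.083, 0.175 and 0.278. Those of differently numbered libraries ran from -0.336 to 0.238, the latter for DMSO replicate 1 and AZD7762 replicate 2. The replicate block called 0 of the 8 tested genes, left ADRA2A called, and moved PDE10A with no filter from 3.83 to 3.78, which ended its call (adjusted p = 0.0743 in edgeR's test). Without 1 library that value ran from 3.30 to 5.68.

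Signs turned only in values whose intervals hold 0. The log2 fold change of ADCY3 was -0.0068 with upper-quartile factors, -0.025 with library totals and -0.029 after that correction, and ran from -0.032 to 0.060 without 1 library. PDE3B gave -0.0048 with library totals and -0.0019 to 0.066 without 1 library. PDE4D gave 0.0095 after it and -0.066 to 0.010 without 1 library. ADCY6 ran from -0.014 to 0.114 and PDE8B from -0.25 to 0.024 without 1 library. Without 1 library, ADCY8 ran from -0.40 to -0.04. ADCY5, ADCY8 and ADCY9 kept their sign in 15 of 15 alternatives, and the unadjusted p of ADCY5 was under 0.05 in 13. The cause of these moves was not tested. Scaling moved the median of all genes by less than 0.1 on the log2 scale, and the low counts of ADCY5, ADCY8 and PDE8B limit what their values can show.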
